A study of Mus musculus with 30 samples.

Results

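The data describe 10 genes that control mitochondrial gene expression. The coactivators are Ppargc1a, Ppargc1b and Perm1, and the nuclear receptors are Esrra, Esrrb, Esrrg, Ppara and Ppard. The remaining genes are the transcription factor Nrf1 and the mitochondrial DNA factor Tfam. The 10 genes were taken by gene symbol, without use of their values, from a count table of 36103 genes, and all 10 were found. RNA-seq was performed on polyadenylated RNA from whole gastrocnemius, diaphragm, heart and liver. The mice were male, 5 weeks old and on the 129Pas background. Mtm1-/y mice, a constitutive knockout model of X-linked myotubular myopathy that lacks the phosphoinositide phosphatase myotubularin in every tissue, were compared with WT littermates. The 30 libraries comprised 4 WT and 4 Mtm1-/y samples of gastrocnemius, 4 and 4 of heart, 4 and 3 of diaphragm, and 3 and 4 of liver. The labels number the libraries within each group and do not state which animals they came from, so p-values measure the spread between these libraries.

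PGC-1 coactivators do not bind DNA themselves. They dock on nuclear receptors such as the oestrogen-related receptors (ERR) and the peroxisome proliferator-activated receptors (PPAR), which then activate genes of the respiratory chain, the TCA cycle and fatty acid oxidation. PERM1 is a muscle-enriched protein that acts with PGC-1 and ERR, and NRF1 activates nuclear genes of the respiratory chain as well as TFAM, the protein that packages and transcribes mitochondrial DNA. Ppara is best known as the fasting and fatty acid receptor of the liver, whereas Ppargc1a and Perm1 are known for oxidative muscle and heart.

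The sequences shown are the stretches of the Ppargc1a, Perm1 and Ppara promoters that lie 5' of an annotated transcript start and outside every annotated exon, because these were the 3 genes whose levels fell in the knockout gastrocnemius. They are RefSeq sequences of build GRCm38.p6, written 5' to 3' on the strand of the gene. In mm10 the genes themselves lie at chr5:51454250-51567726 (Ppargc1a, minus strand), chr4:156215868-156221307 (Perm1, plus strand) and chr15:85734983-85802819 (Ppara, plus strand), by the GENCODE annotation. Other Ppara transcripts start further upstream, so the Ppara stretch lies within the span of the gene. Capitals mark a match, on either strand, to one of the motifs searched.
Ppargc1a, chr5:51567727-51567975, minus strand: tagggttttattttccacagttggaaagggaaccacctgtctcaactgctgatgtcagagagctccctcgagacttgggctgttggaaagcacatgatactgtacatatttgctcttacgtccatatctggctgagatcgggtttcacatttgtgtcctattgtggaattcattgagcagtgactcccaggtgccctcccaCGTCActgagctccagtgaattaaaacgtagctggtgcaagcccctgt
Perm1, chr4:156215677-156215867, plus strand: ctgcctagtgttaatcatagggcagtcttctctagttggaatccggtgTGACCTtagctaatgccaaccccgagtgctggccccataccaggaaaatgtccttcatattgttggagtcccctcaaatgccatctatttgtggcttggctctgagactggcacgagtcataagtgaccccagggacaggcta
Ppara, chr15:85735714-85735775, plus strand: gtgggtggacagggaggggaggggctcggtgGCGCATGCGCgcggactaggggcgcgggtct

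The capitals in Ppargc1a, at position -49 from the start, are the reverse complement of TGACG, the core of a cAMP response element. In Perm1 they are the reverse complement of AGGTCA, the hexamer contained in both ERR and PPAR elements, at position -202. The capitals in Ppara, at position -31, match the palindromic NRF1 recognition sequence. Positions count from the RefSeq start of each window, not from the GENCODE start. By that count the printed stretches end at -2 in Ppargc1a, -60 in Perm1 and -1 in Ppara. Windows of 250 bases before to 50 after the start were searched on both strands for 9 motifs in 32851 promoters of 27025 genes, and 9 of the 10 regulators had 14 such windows. TGACG was present in 20.8% of all promoters, AGGTCA in 16.3% and the NRF1 sequence in 4.60%. TGACG also matched Esrrb, Ppara and Ppard, and one form of the MEF2 element, present in 0.164% of all promoters, matched Esrrg. No window of a regulator held the ERR element TNAAGGTCA, the PPAR element (a direct repeat of AGGTCA with a single spacer base), the full TGACGTCA, the ETS sequence CCGGAAGTG or another form of the MEF2 element, which were present in 1.28%, 0.0396%, 1.79%, 2.03% and 0.110% of all promoters. AGGTCA is part of the ERR and PPAR elements, and TGACG is part of TGACGTCA, so these searches overlap. The matches are descriptions of letters and were not tested for binding.

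Total counts per library ranged from 24873817 to 44289343. Levels are given in CPM, read counts scaled to a common library size by TMM over all libraries. Mtm1 itself lay between 15.9 and 26.9 CPM in WT libraries and between 3.49 and 8.19 CPM in Mtm1-/y libraries, with no overlap in any tissue, and in liver its log2 fold change of -1.60 passed by DESeq2 (adjusted p = 1.2e-06) but not by edgeR (adjusted p = 0.37) or limma voom (adjusted p = 0.22). Markers of the labelled tissues were present: 15 hepatocyte markers summed to between 207000 and 264000 CPM in liver, 8 skeletal myofibre markers to between 129000 and 245000 CPM in gastrocnemius, and 7 cardiomyocyte markers to between 42500 and 49100 CPM in heart. Diaphragm libraries stood apart in their content of albumin mRNA. Alb was at 22800, 15500, 252 and 16600 CPM in WT diaphragm 1 to 4 and at 1450, 28300 and 480 CPM in Mtm1-/y diaphragm 1, 2 and 4. Tests of the regulators between genotypes in diaphragm, of WT diaphragm against gastrocnemius and of interactions are therefore given with and without the 4 libraries with the most Alb (WT 1, 2 and 4 and Mtm1-/y 2), a setting chosen after the data were seen. Family shares, gene lists and the tests of WT diaphragm against heart and liver are given with all libraries. In bulk tissue, fewer cells of a type and less RNA per cell cannot be told apart.

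In WT tissues Perm1, Esrrb and Esrrg were far lower in liver than in muscle, Ppara was highest in liver, and Nrf1 and Tfam spanned a narrow range. Perm1 was the most abundant regulator per exon length in each of the 3 muscles, with 80.2 ± 6.55 CPM per kb in gastrocnemius, 117 ± 23.6 in diaphragm and 85.1 ± 20.5 in heart (SD, n = 4 each). In liver it was the least abundant, with 0.0648 ± 0.0359 CPM per kb (SD, n = 3), and Ppara was the most abundant with 24.7 ± 5.91 CPM per kb. Esrra, the most widely expressed ERR, ranked second in all 3 muscles at 20.6 to 28.3 CPM per kb. These top ranks were unchanged when the longest transcript was used as the length, whereas lower ranks were not all kept. In gastrocnemius, Nrf1 moved above Ppara, with Ppara and Nrf1 at 2.17 and 1.38 CPM per kb of all exons and 2.44 and 3.51 per kb of the longest transcript.

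**Figure D1:**
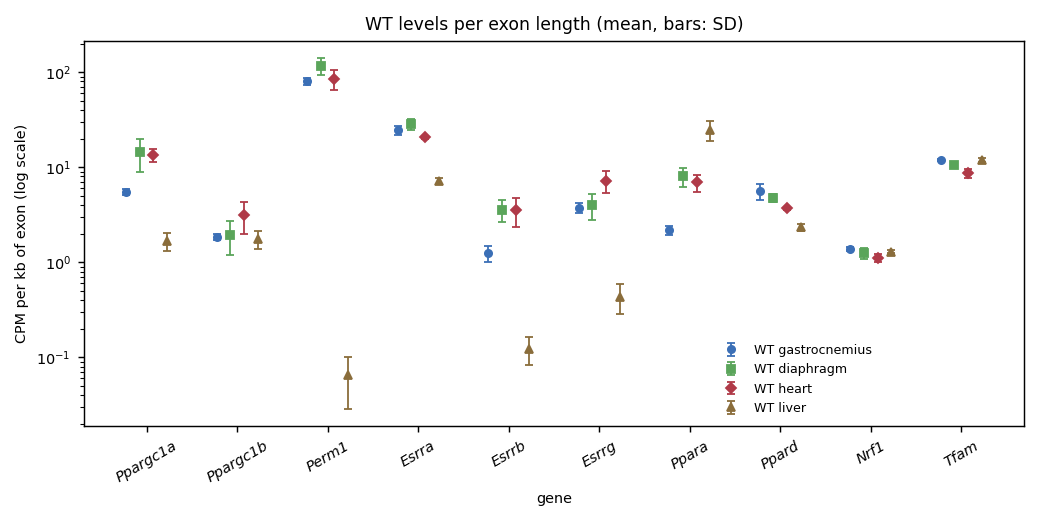
WT levels of the 10 regulators in CPM per kb of exon on a log axis, with one symbol per tissue (mean, bars show SD, n = 4 libraries, 3 in liver). Perm1 lies above the other 9 genes in gastrocnemius, diaphragm and heart and at 0.0648 CPM per kb in liver, where Ppara is highest at 24.7 CPM per kb.

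Differences between WT tissues were tested in one fit of the 15 WT libraries, with edgeR's quasi-likelihood test and Benjamini-Hochberg adjustment. Of the 10 regulators, 4 differed between diaphragm and gastrocnemius, where 54.4% of all genes tested did. The corresponding counts were 9 between heart and gastrocnemius (61.3% of all genes), 4 between heart and diaphragm (51.7%), 7 between liver and gastrocnemius (79.5%), 7 between liver and diaphragm (76.1%) and 9 between liver and heart (76.4%). Comparisons with a common tissue share its libraries.

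Among the coactivators, the level of Ppargc1a ranked diaphragm, heart, gastrocnemius and liver, at 95.7, 88.3, 36.0 and 11.02 CPM. Diaphragm and heart did not differ beyond their spread (adjusted p = 0.67), while heart exceeded gastrocnemius by 1.26 ± 0.22 on the log2 scale (SE, adjusted p = 0.00023) and gastrocnemius exceeded liver by 1.78 ± 0.26 (adjusted p = 1.7e-05). Perm1 was at 455, 332 and 313 CPM in diaphragm, heart and gastrocnemius, with no difference between neighbours (adjusted p = 0.097 and 0.87), and at 0.253 CPM in liver, where the 3 WT libraries held 9, 9 and 2 reads. The gap between gastrocnemius and liver was 10.29 ± 0.40 on the log2 scale (adjusted p = 2.9e-11). Ppargc1b, the paralogue of Ppargc1a, was at 12.4 CPM in heart and between 6.99 and 7.77 CPM elsewhere, and none of the neighbours in this order differed (adjusted p = 0.054, 0.91 and 0.66). Its level in heart exceeded that in gastrocnemius (0.72 ± 0.28 on the log2 scale, adjusted p = 0.037) and that in liver (liver minus heart -0.87 ± 0.31, adjusted p = 0.019). When 1 library was left out, the former passed in 1 of 8 fits (without WT heart 4) and the latter in 4 of 7 (not without WT liver 1 or 2 or WT heart 2).

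The 3 ERR genes had different orders. Esrra decreased from diaphragm (124 CPM) and gastrocnemius (107 CPM), which did not differ (adjusted p = 0.16), to heart (90.5 CPM, adjusted p = 0.037 against gastrocnemius) and liver (31.6 CPM, adjusted p = 4e-08 against heart). The difference between gastrocnemius and heart passed in 3 of 8 fits that left out 1 library, with an adjusted p of up to 0.12, and was lost without WT gastrocnemius 1 or 4 or WT heart 1, 2 or 3. Its exons overlap those of Mir6990 by 91 bases on the same strand and those of Trmt112 by 73 bases on the opposite strand, and none of the other 9 regulators overlaps another gene's exons. Esrrb was at 21.5 CPM in both diaphragm and heart, at 7.57 CPM in gastrocnemius and at 0.742 CPM in liver, and each step below heart passed the test (adjusted p = 0.00022 and 7e-07). Esrrg, an ERR associated with oxidative fibres and heart, was highest in heart at 45.0 CPM, 0.85 ± 0.23 above diaphragm on the log2 scale (adjusted p = 0.0065). This difference passed in each of the 8 fits that left out 1 library (0.726 to 1.001). In the WT diaphragm libraries rich in Alb, Esrrg was at 20.5 to 21.7 CPM, and the part of the Alb content in the difference was not tested. In WT diaphragm 3, low in Alb, Esrrg was at 36.4 CPM, within the range of WT heart (30.5 to 54.9 CPM). Diaphragm and gastrocnemius, at 25.03 and 23.1 CPM, did not differ for Esrrg (adjusted p = 0.78), and liver was at 2.71 CPM (adjusted p = 1.7e-07 against gastrocnemius).

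The order of Ppara was liver (94.7 CPM), diaphragm (30.9), heart (26.7) and gastrocnemius (8.34). Liver exceeded diaphragm by 1.57 ± 0.21 on the log2 scale (adjusted p = 9.7e-06) and heart exceeded gastrocnemius by 1.64 ± 0.20 (adjusted p = 7e-06), while diaphragm and heart did not differ (adjusted p = 0.36). In the WT diaphragm library with 252 CPM of Alb, Ppara was at 35.0 CPM, within the range of the 3 libraries rich in Alb (24.6 to 38.6 CPM). Ppard, a PPAR with a broader distribution, was highest in gastrocnemius and lowest in liver, with 42.0 CPM in gastrocnemius, 36.0 in diaphragm, 27.8 in heart and 17.7 in liver. For Ppard the steps from diaphragm to heart and from heart to liver passed the test (adjusted p = 0.012 and 0.00014), and that from gastrocnemius to diaphragm did not (adjusted p = 0.066).

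Nrf1 had the flattest profile, between 11.4 and 14.2 CPM, and no neighbours in its order differed (adjusted p = 0.15 to 0.93), while the ends did: heart was lower than gastrocnemius by -0.35 ± 0.10 on the log2 scale (adjusted p = 0.0062). Tfam was at 52.9 CPM in liver and 52.8 in gastrocnemius, which did not differ (adjusted p = 0.43), then at 46.6 in diaphragm (adjusted p = 0.03 against gastrocnemius) and 38.2 in heart (adjusted p = 0.006 against diaphragm). The Tfam difference between gastrocnemius and diaphragm passed in 2 of 8 fits that left out 1 library (without WT gastrocnemius 1 or WT diaphragm 2), with an adjusted p of up to 0.26. With WT diaphragm represented only by the 1 library low in Alb, which is assumed to vary like the other tissues, 4 regulators differed from gastrocnemius. Ppargc1a (1.21 on the log2 scale), Esrrb (1.96) and Ppara (2.08) were among them, Perm1 (0.87, adjusted p = 0.036) passed in addition and Tfam (-0.08, adjusted p = 0.71) no longer passed.

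The make-up of each family per kb of all exons is given as a description, and the shares depend on the length used. Ppara formed 28.4% of the summed Ppara and Ppard level in WT gastrocnemius, 62.2% in diaphragm, 64.9% in heart and 90.9% in liver. Per kb of the longest transcript, Ppara was at 9.045 CPM and Ppard at 9.658 in WT diaphragm, so that Ppara was no longer the larger. In WT heart the values by that length were 7.819 and 7.453, and in WT gastrocnemius 2.443 and 11.28. Of the summed ERR level, Esrra formed 83.0% in WT gastrocnemius, 79.0% in diaphragm, 66.0% in heart and 92.8% in liver, while the Esrrg share was 22.8% in heart and between 5.57% and 12.7% in the other tissues. Ppargc1a formed 74.8% of the PGC1 pair in WT gastrocnemius, 87.5% in diaphragm and 81.4% in heart, but 48.7% in liver.

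The comparison of genotypes within each tissue asked how the loss of Mtm1 affected expression organ by organ. In gastrocnemius, Ppargc1a, Perm1 and Ppara fell in Mtm1-/y mice and no regulator rose, so that 3 of 10 passed an adjusted p of 0.05. This share was close to that of all genes, of which 29% passed, 14.9% lower and 14.1% higher. At an unadjusted p under 0.05, 6 regulators passed, against 41.6% of all genes. The median log2 fold change was -0.22 over the 10 regulators and 0.02 over all genes tested.

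Ppara, the fatty acid receptor, changed most. It was at 9.10, 7.48, 9.18 and 7.60 CPM in the 4 WT gastrocnemius libraries and at 4.03, 5.35, 4.05 and 4.33 CPM in the 4 Mtm1-/y libraries. All knockout libraries were below all WT libraries. The log2 fold change was -0.90 ± 0.13 (SE, edgeR quasi-likelihood test, Benjamini-Hochberg adjusted p = 0.0011). Ppargc1a, the exercise-responsive coactivator, was at 33.7, 39.6, 35.1 and 35.4 CPM in WT and at 17.6, 26.3, 23.3 and 26.8 CPM in Mtm1-/y gastrocnemius. The groups did not overlap. The difference was -0.60 ± 0.13 on the log2 scale (adjusted p = 0.0064). Perm1, the muscle partner of PGC-1 and ERR, was at 339, 279, 324 and 310 CPM in WT and at 178, 284, 188 and 211 CPM in Mtm1-/y gastrocnemius. One knockout library lay within the WT range and the other 3 lay below it, and the difference was -0.53 ± 0.14 on the log2 scale (adjusted p = 0.018). These 3 genes passed in each of the 8 fits that left out 1 gastrocnemius library. In one fit of all 30 libraries only Ppara passed (-0.91, adjusted p = 0.042).

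A further 3 regulators had lower levels in every knockout library than in every WT library without passing the adjusted threshold. Esrra was at 110, 98.5, 96.5 and 123 CPM in WT and at 92.0, 93.8, 73.1 and 90.0 CPM in Mtm1-/y gastrocnemius (-0.28 ± 0.10 on the log2 scale, adjusted p = 0.057). Ppard was at 37.9, 37.3, 38.8 and 54.2 CPM in WT and at 31.1, 35.4, 33.5 and 32.9 CPM in Mtm1-/y (-0.33 ± 0.12, adjusted p = 0.06). Tfam was at 50.4, 53.9, 53.8 and 53.0 CPM in WT and at 45.5, 48.7, 43.9 and 48.7 CPM in Mtm1-/y (-0.16 ± 0.06, adjusted p = 0.068). In all, 5 regulators had knockout libraries wholly below WT, and 16.7% of all genes did. DESeq2 called 5 regulators lower and 0 higher, adding Esrra (adjusted p = 0.049) and Ppard (adjusted p = 0.044) to the 3 above. It called 25.7% of all genes in either direction, 2502 of them lower and 2340 higher. Limma voom called Ppara, Ppargc1a and Perm1.

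The remaining 4 regulators had overlapping groups in gastrocnemius. Ppargc1b was between 6.69 and 7.88 CPM in WT and between 6.33 and 11.2 CPM in Mtm1-/y (0.20 ± 0.16 on the log2 scale, adjusted p = 0.37). Esrrg had a value of 0.19 ± 0.12 (adjusted p = 0.25). Esrrb and Nrf1 were at 0.01 ± 0.25 and -0.02 ± 0.08 (adjusted p = 0.98 and 0.86). Ppargc1a formed 62.9% (57.2% to 69.0%) of the PGC1 pair per exon length in Mtm1-/y gastrocnemius and 74.8% (72.9% to 76.2%) in WT, and Ppara formed 20.7% of the PPAR pair in Mtm1-/y and 28.4% in WT, with overlapping ranges. Of the summed ERR level, Esrra formed 78.6% (76.3% to 80.2%) in Mtm1-/y and 83.0% (81.5% to 83.9%) in WT. The Esrrg share was 16.6% (15.3% to 17.9%) in Mtm1-/y and 12.7% (11.6% to 15.1%) in WT, and the Esrrb shares overlapped.

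**Figure D2:**
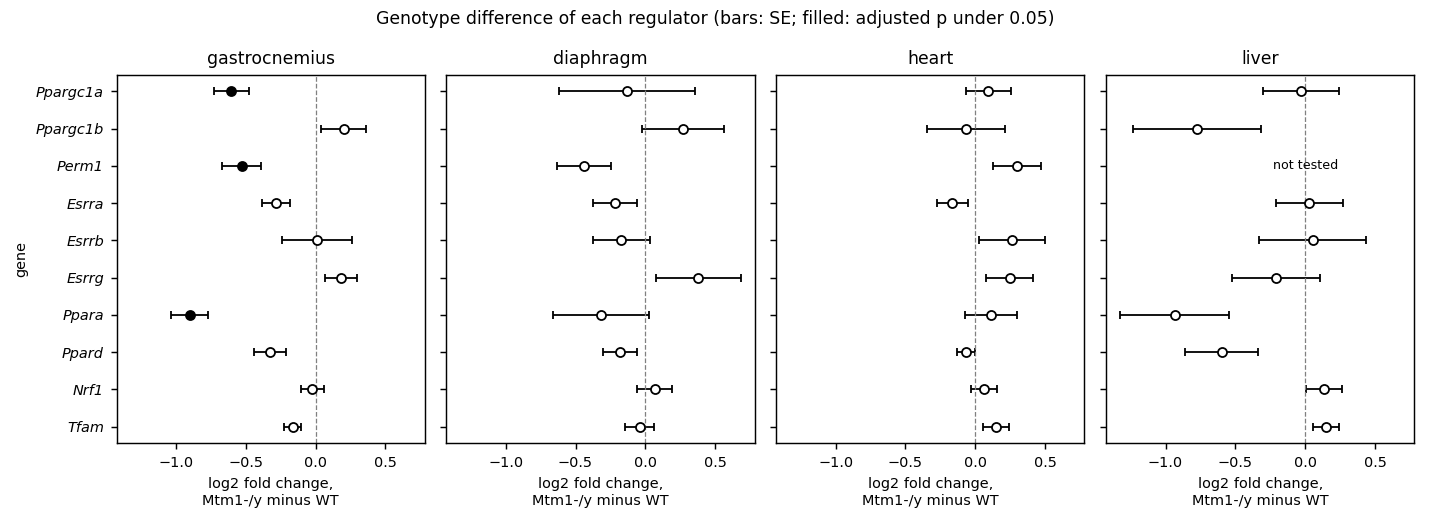
Log2 fold change (Mtm1-/y minus WT) of each regulator in the 4 tissues, with bars for the SE and filled symbols for an adjusted p under 0.05 (edgeR). Filled symbols appear in gastrocnemius for Ppargc1a (-0.60), Perm1 (-0.53) and Ppara (-0.90), and Perm1 was not tested in liver.

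Markers of other cell types moved with genotype in gastrocnemius. Of 10 macrophage markers, 9 rose, and their summed level was 62.4 to 110 CPM in WT and 183 to 223 CPM in Mtm1-/y. Of 8 white adipocyte markers, 7 rose (21.2 to 99.2 CPM against 83.7 to 173 CPM), whereas 7 of 8 skeletal myofibre markers fell (206000 to 245000 CPM against 129000 to 141000 CPM). Of 7 fibroblast markers 4 rose, with overlapping sums, and of 6 endothelial markers 2 fell (342 to 448 CPM against 257 to 330 CPM). No marker of these 5 lists was at 0 in a whole group. When the mean level of the white adipocyte markers entered the fit, Ppara was at -0.58 (adjusted p = 0.14), Ppargc1a at -0.49 (adjusted p = 0.26) and Perm1 at -0.26 (adjusted p = 0.55). With that of the macrophage markers, whose summed level did not overlap between the genotypes, they were at -1.18, -0.10 and -0.45 and no gene of the genome passed, so that these markers and genotype cannot be told apart in this fit. The part of these cells in the results was not tested further.

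In the diaphragm none of the 10 regulators passed, by edgeR, DESeq2 or limma voom, and none had an unadjusted p under 0.05. Of all genes, 0.0119% passed by edgeR and 2.37% by DESeq2, and 10.8% had an unadjusted p under 0.05. Perm1 was at 411, 486, 568 and 355 CPM in WT and at 312, 304 and 375 CPM in Mtm1-/y diaphragm, and the log2 difference was -0.44 ± 0.19 (adjusted p = 0.48). The groups of Perm1 overlapped in 1 knockout library. Ppargc1a spread widely, at 91.8, 61.4, 82.6 and 147 CPM in WT and at 32.2, 106 and 120 CPM in Mtm1-/y (-0.13 ± 0.49, adjusted p = 0.97). Ppara was at 38.6, 24.6, 35.0 and 25.3 CPM in WT and at 14.1, 36.5 and 22.4 CPM in Mtm1-/y (-0.32 ± 0.34, adjusted p = 0.83). The lowest Ppargc1a and the lowest Ppara value came from the same library, Mtm1-/y diaphragm 1.

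The other 7 regulators of the diaphragm had log2 fold changes between -0.22 (Esrra) and 0.38 (Esrrg). Ppard, between 33.6 and 41.0 CPM in WT and between 27.4 and 33.3 CPM in Mtm1-/y, was the only one of the 10 whose groups did not overlap (-0.18 ± 0.12, adjusted p = 0.68), where 5.54% of all genes had knockout libraries wholly below WT. Without the 4 libraries rich in Alb, which left 1 WT and 2 Mtm1-/y libraries, no regulator passed (adjusted p of 0.6 or more), with Perm1 at -0.73, Ppara at -0.94 and Ppargc1a at -0.12. The lone WT library is assumed to vary like the other group in that fit. Brown fat content also varied, since Ucp1, the uncoupling protein of brown fat, was at 10.4, 48.7, 1.53 and 53.1 CPM in WT diaphragm and at 15.7, 27.4 and 0.644 CPM in Mtm1-/y. Fibroblast markers summed to 1970 to 4090 CPM in WT and to 4210 to 8580 CPM in Mtm1-/y diaphragm, without overlap, and their part in these values was not tested.

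**Figure D3:**
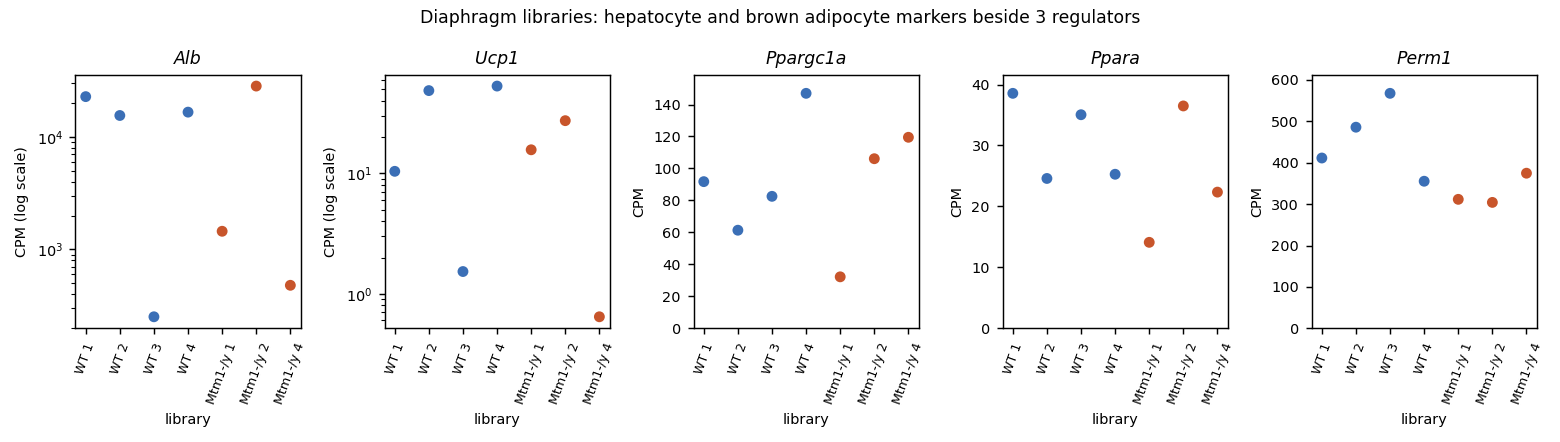
Levels in each diaphragm library (CPM, blue WT, orange Mtm1-/y) of the hepatocyte marker Alb and the brown adipocyte marker Ucp1, both on log axes, beside Ppargc1a, Ppara and Perm1 on linear axes. Alb spans 252 to 28300 CPM, and the knockout values of all 3 regulators overlap those of WT.

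In the heart no regulator passed by any of the 3 methods, and none had an unadjusted p under 0.05. Of all genes, 0.00656% passed by edgeR, 0.453% by DESeq2, and 8.88% had an unadjusted p under 0.05. The 3 genes that fell in gastrocnemius had values of 0.09 ± 0.16 (Ppargc1a, adjusted p = 0.82), 0.30 ± 0.17 (Perm1, adjusted p = 0.56) and 0.11 ± 0.19 (Ppara, adjusted p = 0.81) in heart. Perm1 was at 352, 398, 361 and 216 CPM in WT and at 406, 378, 454 and 401 CPM in Mtm1-/y heart. WT heart 4 was the low library for Perm1, and it was also lowest of its group for Ppargc1a, Ppargc1b, Esrrb (11.3 CPM, the other 3 between 23.2 and 28.3), Esrrg, Ppara, Ppard and Tfam. It was highest of its group for Esrra (95.27 CPM) and Nrf1 (12.96 CPM). The same library stood apart in its atrial markers, which summed to 26400 CPM against 657 to 3720 CPM in the other WT hearts, and had the highest fibroblast (4040 CPM), macrophage (497 CPM) and white adipocyte (115 CPM) sums of its group. Ppargc1a was at 81.6, 86.0, 108 and 77.3 CPM in WT and at 109, 85.7, 71.5 and 112 CPM in Mtm1-/y, and Ppara was at 26.8, 32.1, 28.6 and 19.3 CPM in WT and at 38.2, 23.8, 24.6 and 29.2 CPM in Mtm1-/y. The other regulators had log2 fold changes between -0.165 ± 0.109 (Esrra) and 0.265 ± 0.236 (Esrrb) in heart. The groups of all 10 regulators overlapped in heart, where 4.17% of all genes had groups that did not. White adipocyte markers summed to 30.9 to 115 CPM in WT heart and to 4.81 to 12.4 CPM in Mtm1-/y heart, and atrial markers to 657 to 26400 CPM and 137 to 4870 CPM. The white adipocyte sums did not overlap between the genotypes, so a fit with these markers can hardly separate them from genotype. When the mean level of the white adipocyte markers entered the fit, Perm1 was at -0.29 and Ppara at -0.16 in heart, and with the atrial markers Perm1 was at 0.02 and Ppara at -0.23, with an adjusted p of 1 in each case.

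Liver allowed 9 of the 10 regulators to be tested, since Perm1 was below the count filter with 2 to 9 reads per library. None passed after adjustment, by edgeR, DESeq2 or limma voom, where 0% of all genes passed by edgeR and 0.163% by DESeq2. At an unadjusted p under 0.05, 4.24% of all genes passed and 2 regulators did, both PPARs. Ppara was at 93.9, 118 and 72.4 CPM in WT and at 67.1, 44.1, 19.5 and 67.5 CPM in Mtm1-/y liver. Every knockout library was below every WT library, which was so for 3.33% of all genes, and the log2 fold change was -0.93 ± 0.39 (edgeR, adjusted p = 0.97). Ppard was at 18.0, 16.0 and 18.9 CPM in WT and at 16.7, 8.33, 13.3 and 8.36 CPM in Mtm1-/y, with 1 knockout library inside the WT range (-0.60 ± 0.26, adjusted p = 0.97). Ppargc1b had a value of -0.77 ± 0.46 (adjusted p = 0.97), and its Mtm1-/y libraries spread from 2.07 to 8.28 CPM. Ppargc1a, Esrra and Esrrb were within 0.06 of 0 on the log2 scale. Esrrg was at -0.211 ± 0.315, Nrf1 at 0.134 ± 0.126 and Tfam at 0.147 ± 0.095.

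**Figure D4:**
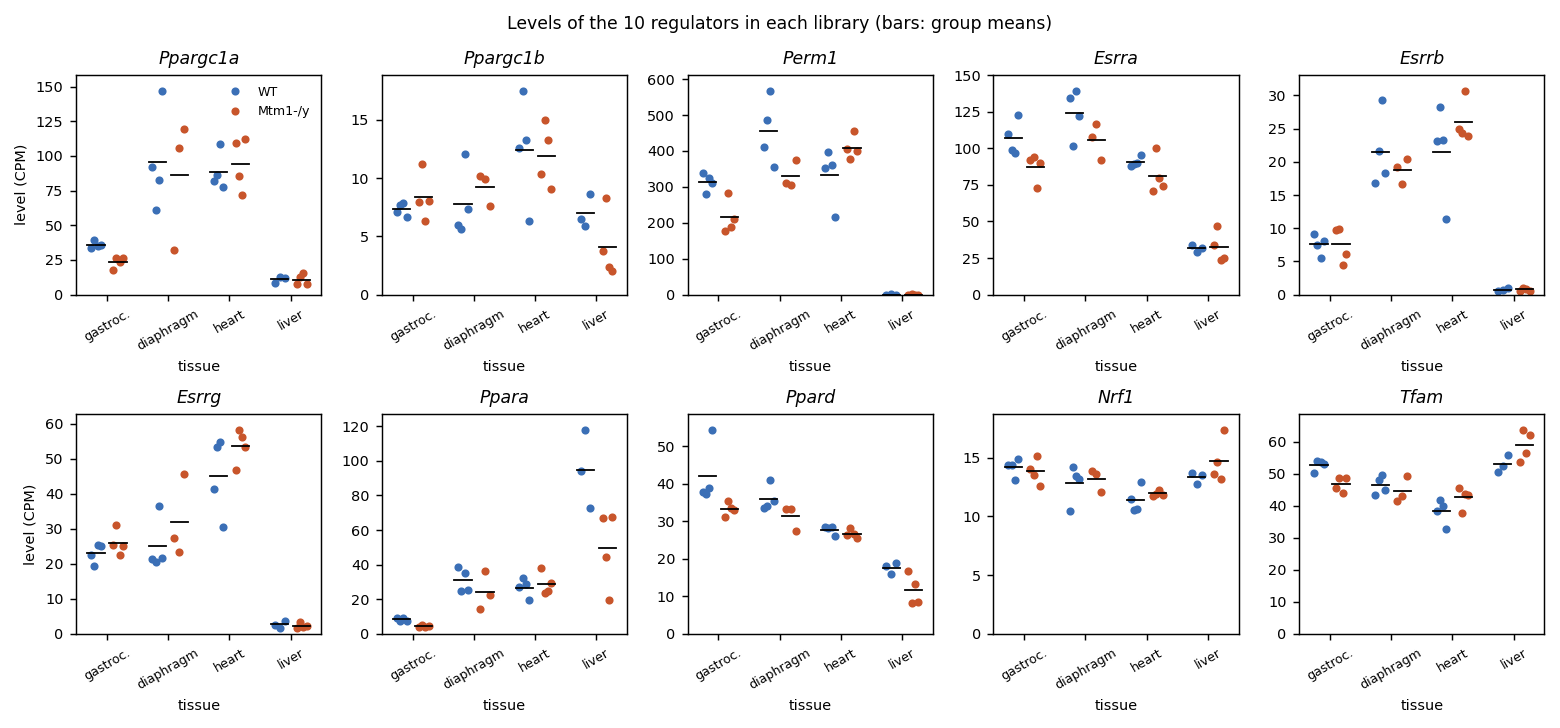
Level of each regulator in every library (CPM, linear axes from 0), by tissue and genotype, with bars for group means. In gastrocnemius the knockout libraries of Ppara lie at 4.03 to 5.35 CPM below the WT libraries at 7.48 to 9.18 CPM, and in heart and diaphragm the libraries of the genotypes intermingle for most genes.

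Whether the genotype difference itself differed between muscles was tested with an interaction term. Between heart and gastrocnemius it differed for 4 regulators, all of them higher in heart relative to gastrocnemius, where 19.8% of all genes passed and 9.94% passed in that direction. The difference (heart minus gastrocnemius) was 1.03 ± 0.24 for Ppara (edgeR quasi-likelihood test, Benjamini-Hochberg adjusted p = 0.0086), 0.84 ± 0.24 for Perm1 (adjusted p = 0.023), 0.71 ± 0.22 for Ppargc1a (adjusted p = 0.033) and 0.33 ± 0.11 for Tfam (adjusted p = 0.048). When 1 of the 16 libraries was left out at a time, Ppara passed in all 16 fits, Perm1 in 15 (not without Mtm1-/y heart 3, adjusted p = 0.051), Ppargc1a in 9 and Tfam in 2. In one fit of all 30 libraries none of the 4 passed (adjusted p = 0.12, 0.071, 0.29 and 0.066 for Ppara, Perm1, Ppargc1a and Tfam). Ppargc1a ranged from 0.60 to 0.83 and its adjusted p reached 0.074, lost without WT gastrocnemius 2, Mtm1-/y gastrocnemius 1 or 3, WT heart 1 or 4, or Mtm1-/y heart 1 or 4. Tfam ranged from 0.25 to 0.38 and passed only without WT heart 2 or Mtm1-/y heart 2. With the replicate number as a block, 2 of the 4 passed, Perm1 and Ppara.

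The other interaction tests called no regulator. Between heart and diaphragm 0.00573% of all genes passed and 10.6% had an unadjusted p under 0.05, among them 1 regulator, Perm1 (0.75 ± 0.27, adjusted p = 0.34). Between diaphragm and gastrocnemius 0.28% of all genes passed and 12.8% had an unadjusted p under 0.05, with no regulator among them. The largest of these differences was that of Ppara, 0.56 ± 0.35 (adjusted p = 0.53), so the changes in gastrocnemius were not shown to differ from those in diaphragm. DESeq2 called no regulator in either test. Without the 4 diaphragm libraries with the most Alb neither test called a regulator, with Perm1 at 1.01 (adjusted p = 0.31) and Ppara at 1.04 (adjusted p = 0.36) for heart minus diaphragm and Ppara at -0.039 for diaphragm minus gastrocnemius. The 3 interaction tests share libraries of each tissue.

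Genes downstream and upstream of the regulators were read from lists, with their counts set beside the 29% of all genes that passed in gastrocnemius and the median of 0.02. Of 28 genes of the respiratory chain and the TCA cycle, textbook targets of PGC-1, ERR and NRF1, 23 fell in Mtm1-/y gastrocnemius and none rose, with a median log2 fold change of -0.40. All 28 had negative values. Suclg1, a subunit of succinyl-CoA ligase, fell by 0.66 ± 0.08 on the log2 scale (adjusted p = 0.00051), from 360 to 226 CPM. Idh3a, a subunit of isocitrate dehydrogenase, was at -0.64 ± 0.08 (adjusted p = 0.00068). Of the genes encoded by mitochondrial DNA, 12 were found, 7 were tested and all 7 fell, with a median of -0.55, among them the complex I subunits mt-Nd4 (-0.55 ± 0.11, adjusted p = 0.0045), mt-Nd2 (-0.60 ± 0.12, adjusted p = 0.0046) and mt-Nd1 (-0.53 ± 0.10, adjusted p = 0.0046).

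Targets of PPAR in lipid handling did not move together. Of 26 tested, 5 rose and 1 fell, with a median of 0.05. Ucp2, an inner-membrane carrier, rose from 35.5 to 111 CPM (1.65 ± 0.16, adjusted p = 0.00019), Vnn1, a pantetheinase, from 0.203 to 0.550 CPM (1.43 ± 0.26, adjusted p = 0.003) and Angptl4, a secreted inhibitor of lipoprotein lipase, from 7.42 to 23.8 CPM (1.70 ± 0.34, adjusted p = 0.0054). Plin2 and Acot2 also rose, and Acadm, the medium-chain acyl-CoA dehydrogenase, fell (-0.48). These rises were seen where the white adipocyte and macrophage markers rose too, and the part of those cells was not tested. Among 17 genes that maintain and transcribe mitochondrial DNA, 3 fell (Mgme1, Polg and Top1mt) and 1 rose (Rnaseh1), with a median of -0.07. The share that passed was below the 29% of all genes.

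Of 24 partners and coregulators tested, 6 fell and 1 rose, a share close to the 29% of all genes. The retinoid X receptors, which form the obligate heterodimer with PPAR, included the strongest fall: Rxrg was at -0.99 ± 0.09 (adjusted p = 0.00017), from 94.7 to 47.2 CPM, and Rxra at -0.50 ± 0.08 (adjusted p = 0.0012). Ncoa1, a nuclear receptor coactivator, was at -0.60 ± 0.11 (adjusted p = 0.0037). Of 28 upstream kinases and factors tested, 8 fell and 3 rose. Prkab2, a regulatory subunit of AMPK, was at -0.97 ± 0.09 (adjusted p = 0.00012), Camk2a, a calcium/calmodulin kinase, at -0.84 ± 0.08 (adjusted p = 0.00016) and Ppp3cb, a catalytic subunit of calcineurin, at -0.69 ± 0.07 (adjusted p = 0.00029).

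Among 14 genes of muscle energy transfer, 7 fell and 2 rose (median -0.35), with Slc25a12 at -0.54 ± 0.06 (adjusted p = 0.00033) and Ak1, adenylate kinase, at -0.78 ± 0.09 (adjusted p = 5e-04). Of 10 genes of mitochondrial fusion and fission 5 fell and none rose, including the fusion proteins Mfn2 (-0.50 ± 0.07, adjusted p = 0.00072) and Opa1 (-0.42 ± 0.08, adjusted p = 0.0033). Fibre-type genes moved too: 11 of 12 fast-fibre genes fell and 1, Myh1, rose, with Actn3 at -0.92 ± 0.11 (adjusted p = 0.00043). Of 11 slow and oxidative fibre genes 2 rose (Myh2 at 0.93 ± 0.17, adjusted p = 0.0034, and Casq2 at 0.97 ± 0.18, adjusted p = 0.0039) and 1 fell (Myl3, -1.06 ± 0.27, adjusted p = 0.017). Over these 11 genes the median was -0.355, with 7 negative and 4 positive values, and the share that passed was close to the 29% of all genes.

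**Figure D5:**
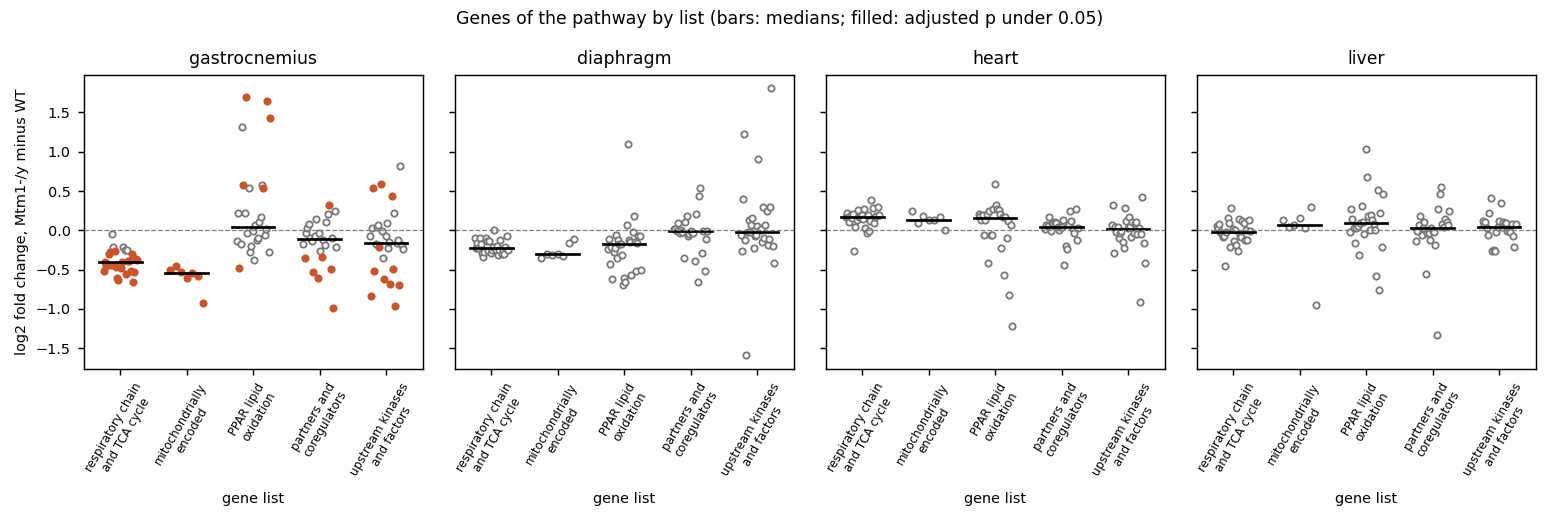
Log2 fold change (Mtm1-/y minus WT) of the genes of 5 lists in each tissue, one symbol per gene, filled where the adjusted p was under 0.05 (edgeR), with bars for medians. In gastrocnemius the respiratory chain and TCA cycle genes lie around -0.40 and the mitochondrially encoded transcripts around -0.55, while in heart their medians are 0.17 and 0.14 with no filled symbol.

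In the other tissues no gene of these lists passed by edgeR, and between 0 and 3 genes per list had an unadjusted p under 0.05. DESeq2 called 2 upstream genes higher in diaphragm and 1 slow-fibre gene higher in liver. The respiratory chain and TCA cycle list had a median of -0.22 in diaphragm, with 28 of 28 values negative, of 0.17 in heart, with 25 of 28 positive, and of -0.02 in liver. Mitochondrially encoded transcripts had medians of -0.31 in diaphragm, 0.14 in heart and 0.06 in liver. The median over all genes was between -0.01 and 0.01 in these tissues. In the interaction test of heart against gastrocnemius, where 9.94% of all genes were higher in heart and the median was -0.03, 20 of 28 respiratory chain and TCA cycle genes were higher in heart and none lower (median 0.64). Of 7 mitochondrially encoded transcripts 6 were higher and none lower (median 0.75). None was lower either among partners and coregulators (6 of 25 higher), fusion and fission genes (5 of 10) and genes of mitochondrial DNA maintenance (2 of 17). The other lists moved both ways or hardly at all: PPAR targets had 3 higher and 3 lower of 27, upstream kinases and factors 6 and 3 of 28, energy transfer genes 7 and 2 of 14, fast-fibre genes 1 and 1 of 12 and slow-fibre genes 0 and 1 of 11. Between heart and diaphragm no gene of these lists passed.

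Across all 30 libraries, the genes whose log2 CPM most resembled each regulator were read by Pearson's r, over points that share 4 tissues and their differences. Perm1 was most like Cox7a1 (r = 0.996), Tmem65 (0.995) and Slc25a4 (0.994), of which Cox7a1 and Slc25a4 encode a muscle subunit of cytochrome oxidase and the muscle ADP/ATP carrier. Esrrb was most like Ldhb (0.989), Tbc1d4 (0.982) and Oxct1 (0.980), and Esrrg was most like Dlat (0.983), Vldlr (0.981) and Qk (0.981). Ppargc1a was most like Tbc1d4 (0.939), Tecrl (0.932) and Zfp57 (0.927), and Ppara most like Flt4 (0.933), Acaa2 (0.923) and Pdp2 (0.921). For Esrra and Tfam the leading genes were Fastk (0.965) and Hbs1l (0.944). For Ppargc1b (Kctd1, 0.795) and Nrf1 (Dedd, 0.762) it was lower. By Spearman's rho at most 1 of the 3 leading genes of any regulator remained.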

How the data were processed

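Per the labels and the study's methods, the authors trimmed single reads (cutadapt 1.10), aligned these to the mouse build mm10 (STAR 2.5.3a) and kept uniquely aligned, unambiguous reads, counted per Ensembl gene (HTSeq 0.6.1p1). Libraries were made from polyadenylated RNA with a stranded kit. The deposited values used here are these raw read counts, and 0 sample columns were left unused. Genotype and tissue were taken from the labels. Each comparison was fitted on its own libraries with edgeR 4.0.16 (TMM, filterByExpr with a minimum count of 10, quasi-likelihood F test) in R 4.3.3, with Benjamini-Hochberg adjustment over all genes tested, and SEs were derived from the F statistic. Wild-type tissues shared one fit. DESeq2 1.42.0, limma voom 3.58.1, other normalisations, no filter, a fit of all libraries, a replicate block, marker covariates and leaving out libraries were alternatives. Levels per kb used exon lengths of a GENCODE annotation of the same build, and promoter windows came from RefSeq. The models were also run on simulated counts with the same spread for all genes and tissues, so the wide spread between diaphragm libraries was not covered. All 10 regulators are described in every tissue. Of each list, up to 3 genes with the smallest p among those passing in gastrocnemius are given with their values. Likeness names up to 3 genes with the highest r, a few genes that these rules would name are not reported here, and other genes named were chosen after their values were seen. The regulators and lists were chosen with earlier results of these data known. The 4 diaphragm libraries were left out, and the brown adipocyte covariate was used, as choices made after the data were seen. Total counts per library, 24873817 to 44289343, set the counting error.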

Additional observations from a re-analysis of the deposited data

Results flagged for a closer look

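A library far from the others of its group was found in 3 of 60 groups of 4 libraries, and chance alone gives about 1 in 20. Ppard was at 54.2 CPM in WT gastrocnemius 4, with the other 3 WT libraries between 37.3 and 38.8 CPM. Esrrg was at 36.4 CPM in WT diaphragm 3, the WT diaphragm library low in Alb, and between 20.5 and 21.7 CPM in the other 3. Esrrb was at 30.7 CPM in Mtm1-/y heart 3 and between 24.0 and 24.9 CPM in the other 3. The genotype difference differed between heart and gastrocnemius, by the interaction test, by 0.71 for Ppargc1a, 0.84 for Perm1, 1.03 for Ppara and 0.33 for Tfam on the log2 scale.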

How the results depend on the processing

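Of 882 values of single regulators under alternatives that kept every library or left out the 4 diaphragm libraries together, 42 changed sign, none of them passing in either fit, while 23 lost and 13 gained an adjusted p under 0.05. In gastrocnemius the 3 regulators called became 5 with DESeq2, 1 (Ppara) with all 30 libraries in one fit, and 0 when a log2 fold change over 1 was required or when white adipocyte or macrophage markers were a covariate. All genes called there were 4479, against 1024, 2925, 613 and 0 under the fold limit, the fit of all libraries and these 2 covariates. In diaphragm the 2 genes called became 438 with DESeq2, 9 with limma voom, 274 with all libraries, 41 with the hepatocyte covariate and 0 without the 4 libraries, and 0 to 162 (the highest without Mtm1-/y diaphragm 2) when 1 library was left out. In heart 1 gene became 85 with DESeq2, 5 with all libraries, 2 with the atrial and 23 with the brown adipocyte covariate, and 1 to 19 (without WT heart 1) with 1 library left out. In liver 0 became 8 without a filter, 25 with DESeq2, 14 with all libraries and 0 to 8 (without Mtm1-/y liver 1). The 4 regulators called between heart and gastrocnemius became 0 with all libraries and 2 to 4 with 1 library left out. The cause of these shifts was not tested.

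Sign changes larger than the SE were as follows. With the hepatocyte covariate in gastrocnemius, Ppargc1b was at -0.034, Esrrb at -0.28 and Nrf1 at 0.074, and with the macrophage covariate Esrra was at 0.015, Ppard at 0.06 and Nrf1 at 0.067. In heart, the white adipocyte covariate gave Perm1 -0.29, Esrrb -0.57, Esrrg -0.41, Ppara -0.16 and Tfam -0.10. The summed level of those markers did not overlap between the genotypes in heart, so that fit can hardly separate them from genotype. The atrial covariate gave Esrra 0.021, Esrrb -0.10, Ppara -0.23 and Tfam -0.041. Without the 4 diaphragm libraries, Ppargc1b was at -0.45 in diaphragm and at 0.37 for heart minus diaphragm, and for diaphragm minus gastrocnemius Ppargc1b was at -0.64, Perm1 at -0.19, Esrra at -0.19, Esrrg at -0.18, Ppara at -0.039 and Ppard at -0.10. With 1 library left out, Esrrb in diaphragm ranged from -0.28 to 0.036, Esrrg for diaphragm minus gastrocnemius from -0.16 to 0.42, Ppargc1a for WT heart minus diaphragm from -0.29 to 0.10 and Nrf1 for WT liver minus diaphragm from -0.11 to 0.06.

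Whether libraries with equal numbers came from the same animal was not settled. In each of 16 pairings the lowest correlation of deviations was 0.1 or less. Pairings of WT with Mtm1-/y libraries within a tissue join different animals, as a replicate block within a tissue does, and do not bear on this question. The library of equal number was the best match for between 0 of 4 (Mtm1-/y gastrocnemius with heart) and 3 of 3 (Mtm1-/y diaphragm with heart). Between WT gastrocnemius and heart it was so for 3 of 4. So few correlations per pairing cannot exclude shared animals, and the main fits treat the libraries as unpaired. With the replicate number as a block, 4 regulators passed in gastrocnemius (Esrra in addition, -0.28, adjusted p = 0.039), 2 passed between heart and gastrocnemius (Perm1, 0.87, and Ppara, 1.03) and 0 genes passed in diaphragm.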
